A study of Mus musculus with 6 samples.

Results

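The genes described here encode the metalloproteases of the MMP, ADAM and ADAMTS families and their tissue inhibitors, the TIMPs, in the uterus of pregnant mice. They were chosen by symbol alone. Every gene whose symbol begins with Mmp, Adam or Adamts followed by a digit was taken, with Timp1 to Timp4, and pseudogenes were left out. This gave 78 of the 56748 genes in the tables: 22 MMP, 33 ADAM, 19 ADAMTS and 4 TIMP genes. Mmp1a also matched but is annotated as a polymorphic pseudogene. It was left out and was listed at 0 in all 6 libraries.

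Uterine RNA was taken at 1600 h on day 4 of pregnancy, which is shortly before the embryo attaches. The controls, labelled WT, were compared with mice in which the zinc transporter Zip10, encoded by Slc39a10, was deleted in the uterus (Zip10 cKO, a conditional knockout). The series asks how loss of this transporter bears on the response to progesterone. Each group held 3 libraries. The labels used here name no Cre driver, deleted exons, strain or age. The tissue is called uterus in the sample labels and endometrium in the design text, and smooth muscle markers were abundant in all 6 libraries. Separate animals are not named in the labels for the libraries, and the p-values therefore reflect the spread among these samples, which may be technical.

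MMPs are secreted or membrane-bound enzymes that cut collagens, proteoglycans and other matrix proteins. ADAMs are membrane proteins, and the active ones release growth factors, cytokines and receptors from the cell surface. ADAMTS enzymes are secreted, and their known substrates include procollagens and proteoglycans such as versican. All 3 families hold a zinc ion in the active site, and TIMPs block it by inserting their first cysteine. In the uterus these enzymes are known for matrix remodelling in the cycle, at implantation and after birth.

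Total counts ranged from 19643093 to 22809577 per library, and the members took 0.311% to 0.459% of them, the highest share being that of cKO library 1. This library stood alone in multidimensional scaling, where its first coordinate was -1.58 and those of the other 5 ran from -0.02 to 0.77. Its mitochondrial share of counts was 3.43% against 4.50% to 4.84%. Slc39a10 was at 54.6, 70.4 and 66.2 CPM (counts scaled to library size with TMM factors) in controls 1 to 3, and at 39.5, 72.5 and 79.8 CPM in cKO libraries 1 to 3. An exact two-sided permutation test of these 6 values gave p = 1, where 3 against 3 cannot go below 0.1. The gene total would also count reads from any exons that remain after a deletion, and the deleted exons are not named. It therefore cannot check the genotype, and each direction given is that of libraries so labelled. The reason for these Slc39a10 levels was not tested.

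The feature that makes these proteins zinc enzymes can be read in their coding sequences. It is a run of 11 codons in which 3 histidine codons encode the zinc ligands, and the glutamate codon after the first of them encodes the catalytic base. The sites below come from the GENCODE M21 transcript with the longest coding sequence, read 5′ to 3′ on the coding strand. They are shown for enzymes of each family that the results describe, with each kind of 8th codon among them. Capitals mark the 3 histidine codons, the glutamate codon and the 8th codon, which differs between members.
Mmp2: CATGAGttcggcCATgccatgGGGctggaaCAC
Mmp14: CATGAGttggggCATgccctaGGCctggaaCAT
Mmp3: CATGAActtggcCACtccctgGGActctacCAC
Mmp9: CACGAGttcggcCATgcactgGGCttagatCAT
Adam10: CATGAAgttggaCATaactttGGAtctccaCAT
Adam19: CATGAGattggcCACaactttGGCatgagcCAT
Adamts2: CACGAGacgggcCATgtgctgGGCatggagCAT
Adamts16: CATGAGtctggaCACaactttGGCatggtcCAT
Adamts1: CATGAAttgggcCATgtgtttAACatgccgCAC
Adamts15: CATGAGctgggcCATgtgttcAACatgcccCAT
Adamts8: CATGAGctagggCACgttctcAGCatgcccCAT

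All 22 MMP genes held the site in frame, each with a glycine codon in the 8th place. Among the 19 ADAMTS genes, 13 had a glycine codon there and 6 did not. The codon was AAC in Adamts1, Adamts4 and Adamts15, AAT in Adamts9 and Adamts20 (both for asparagine), and AGC, for serine, in Adamts8. These 6 belong to the 7 genes grouped here as proteoglycanases, enzymes that cut versican and aggrecan, and the other one, Adamts5, had GGC. Of the 33 ADAM genes, 20 held the site and 13 did not. The 13 include Adam11, Adam22 and Adam23, which are known as adhesion proteins of neurons, and 10 genes best known from the testis or epididymis, such as Adam2 and Adam3.

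A second zinc-related feature, the cysteine switch, keeps MMPs latent until it is cut away. The pattern searched was 7 codons, for proline, arginine, cysteine, glycine, any residue, proline and aspartate. This MMP form was found in 16 of the 22 MMP genes and in none of the ADAM or ADAMTS genes. A switch with other residues around the cysteine would be missed, so a gene without the pattern may still have a switch. It is shown for the most abundant soluble and membrane-bound MMP and for Mmp3, with the codon of the zinc-binding cysteine in capitals.
Mmp2 switch: ccaagaTGTggcaacccagat
Mmp14 switch: cctcgcTGTggtgttccggat
Mmp3 switch: cccaggTGTggtgttcctgat
The pattern searched did not occur in Mmp11, Mmp17, Mmp19, Mmp23, Mmp25 or Mmp28.

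The promoters of several MMP genes are textbook targets of AP-1, a transcription factor of Fos and Jun proteins. The letters TGAGTCA or TGACTCA, each the reverse complement of the other, were searched from 250 bases before to 50 after each start site in RefSeq's GRCm38.p6 table. An entry was matched for 48 of the 78 members. The letters were in 9 of these (18.8%), against 5.95% of 27025 genes, and 6 of the 9 are neighbouring MMP genes on chromosome 9. Of the 9, Mmp3 and Adam19 had enough counts to be tested, and their stretches are shown with the letters in capitals. A match is a description of the sequence and no evidence of binding.
Mmp3 (GRCm38.p6, chr9:7445764-7445794, plus strand): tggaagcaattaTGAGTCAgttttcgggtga
Adam19 (GRCm38.p6, chr11:46055841-46055871, plus strand): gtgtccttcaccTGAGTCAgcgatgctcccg

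Levels are compared between genes in TPM, which divides counts by gene length. By the mean of the 6 libraries, 4 members were at 100 TPM or more, 19 at 10 to under 100, 19 at 1 to under 10, 12 at 0.1 to under 1 and 24 under 0.1. Over all genes in the tables, 2.10% were at 100 TPM or more and 62.2% under 0.1, against 5.13% and 30.8% of the members. Of the 24 under 0.1 TPM, 12 had no count in any library. In all, 48 members had enough counts to be tested, and the other 30 had a mean of at most 0.687 TPM.

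The 4 most abundant members were Mmp2, Timp2, Mmp14 and Adam15. Mmp2, a gelatinase, was at 303.57, 331.86 and 302.80 TPM in controls 1 to 3 and at 495.80, 284.39 and 283.97 TPM in cKO libraries 1 to 3. Timp2, which inhibits MMPs and also docks the MMP2 precursor onto MMP14, was at 155.16, 178.42 and 178.82 TPM in controls and 237.10, 212.71 and 213.79 TPM in cKO libraries. Mmp14, the membrane-type MMP that activates the MMP2 precursor, was at 138.73, 154.38 and 146.85 TPM in controls and 211.61, 167.53 and 158.45 TPM in cKO libraries. The 3 partners of this activation complex thus held 42.8% to 46.5% of all member TPM in each library. Adam15, a membrane ADAM with integrin-binding activity, ranged from 106.28 to 152.91 TPM. Of the 22 pairs of neighbours in the order of the 23 members at 10 TPM or more, only Mmp2 and Timp2 had ranges over the 6 libraries that did not overlap.

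**Figure D1:**
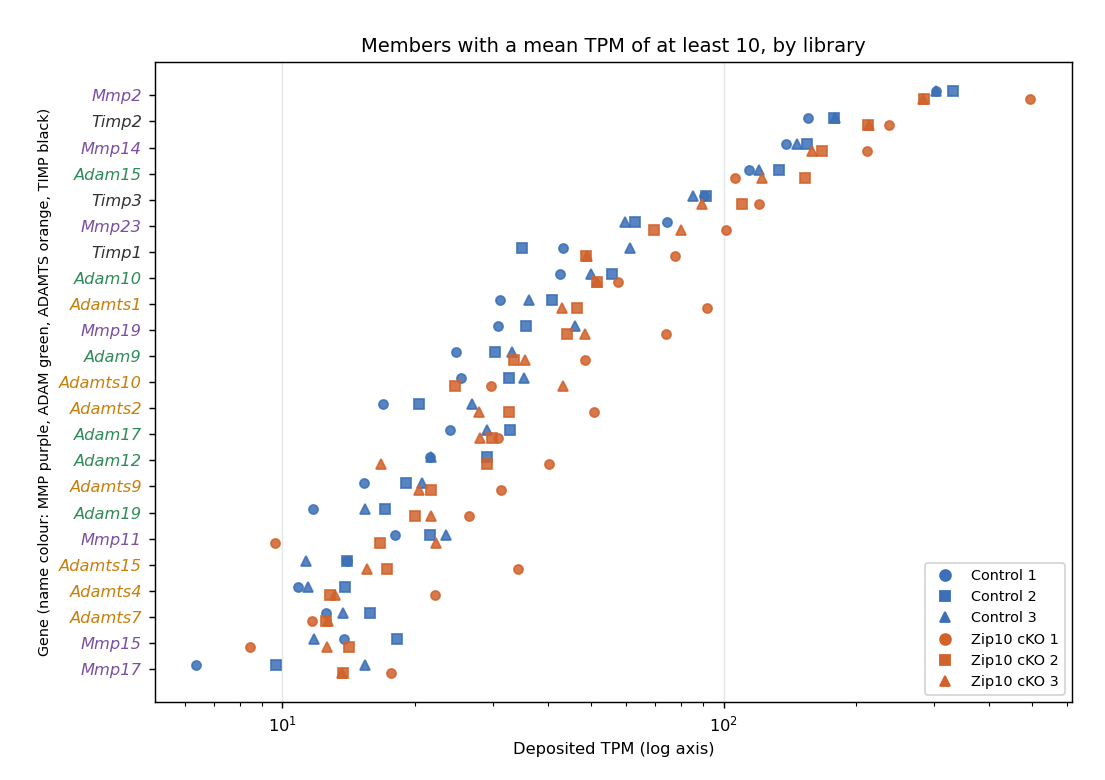
Deposited TPM (log axis) of the 23 members with a mean of at least 10 TPM, 1 point per library, with controls in blue and Zip10 cKO in orange. Mmp2 leads in every library, and the circle of cKO library 1 lies to the right of the other points for Mmp2, Adamts1, Adamts15 and Adamts2.

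Below these 4, Timp3, an inhibitor bound to the matrix, ranged from 85.42 to 120.38 TPM, and Mmp23, an MMP anchored through its amino end, from 59.65 to 101.39 TPM. Timp1, a soluble inhibitor, ranged from 35.00 to 77.58 TPM. Adam10 and Adam17, the main sheddases of Notch receptors and of TNF and EGF receptor ligands, ranged from 42.50 to 57.78 TPM and from 23.97 to 32.74 TPM. Among ADAMTS genes, Adamts1 (mean 48.3 TPM) was the highest, followed by Adamts10 (31.8 TPM), which associates with fibrillin, and the procollagen N-proteinase Adamts2 (29.3 TPM). Adam28 had a mean of 0.98 TPM.

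Other members were at or near 0. The collagenases Mmp8, Mmp13 and Mmp1b had means of 0.06, 0.0167 and 0 TPM. The matrilysin Mmp7, known from secretory epithelium, ranged from 0.22 to 1.37 TPM, and the macrophage elastase Mmp12 from 0.04 to 0.19 TPM. Timp4 lay between 0.08 and 0.53 TPM, with 6 to 19 counts per library, and did not pass the filter on low counts. Of the 21 ADAM genes grouped as those of the male reproductive tract, 17 were under 0.1 TPM. The exceptions were Adam1a (1.93 TPM), Adam5 (1.45 TPM), Adam4 (0.448 TPM) and Adam32 (0.215 TPM). Sperm markers summed to 0.81 to 1.83 TPM in the cKO libraries and 0.80 to 1.39 TPM in controls, and Prm2, Tnp1, Akap4 and Smcp were listed at 0 in all 6. Most of this sum was Tssk6 alone, at 1.11, 1.08 and 0.80 TPM in controls and 1.59, 1.14 and 0.81 TPM in cKO libraries. No other sperm marker was above 0.34 TPM in any library. Adam1a shares exons with other genes of the annotation, so its value is uncertain.

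The Zip10 cKO libraries were compared with the controls by edgeR's quasi-likelihood test over all 16737 genes with enough counts. No member passed an adjusted p of 0.05, and no gene did (0.00% of all genes called). The smallest adjusted p among members was 0.747 in that test. At an unadjusted p under 0.05 there were 13 of 48 members (27.1%), 12 higher and 1 lower in the cKO libraries. Over all genes tested the share was 6.46%, with 4.48% higher and 1.98% lower. DESeq2, run as an alternative, put 14 of 66 members (21.2%) at an unadjusted p under 0.05, beside 4.15% of all genes. It called 1 member, Adamts16, and 37 genes in all (0.185%). In direction, 36 of the 48 members (75.0%) had a log2 fold change above 0, against 49.4% of all genes. On the log2 scale the members' median fold change was 0.28, where that of all genes was 0.00.

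For 12 members (25.0%) the 2 groups did not overlap in CPM, 11 with the cKO libraries above and 1 with them below. The same held for 12.7% of all genes tested (6.93% above and 5.78% below). The 11 were Mmp3, Mmp9, Mmp14, Adam9, Adam15, Adam19, Adam23, Adamts1, Adamts3, Adamts12 and Timp2, and the one below was Adamts16. Of the 48 tested members, 26 (54.2%) had their highest level in cKO library 1, against 24.6% of all genes. Without that library the median of members was 0.15, with 40 of 50 tested members higher and 10 at an unadjusted p under 0.05, beside 4.30% of all genes. The count at that p was 7 without control 1 and 7 without control 2, beside 3.96% and 4.87% of all genes. It was 20 without cKO library 3, beside 8.06% of all genes. Members with groups that do not overlap numbered 19 when control 3 was left out, beside 24.5% of all genes. They numbered 23 when cKO library 3 was left out, beside 26.0% of all genes.

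**Figure D2:**
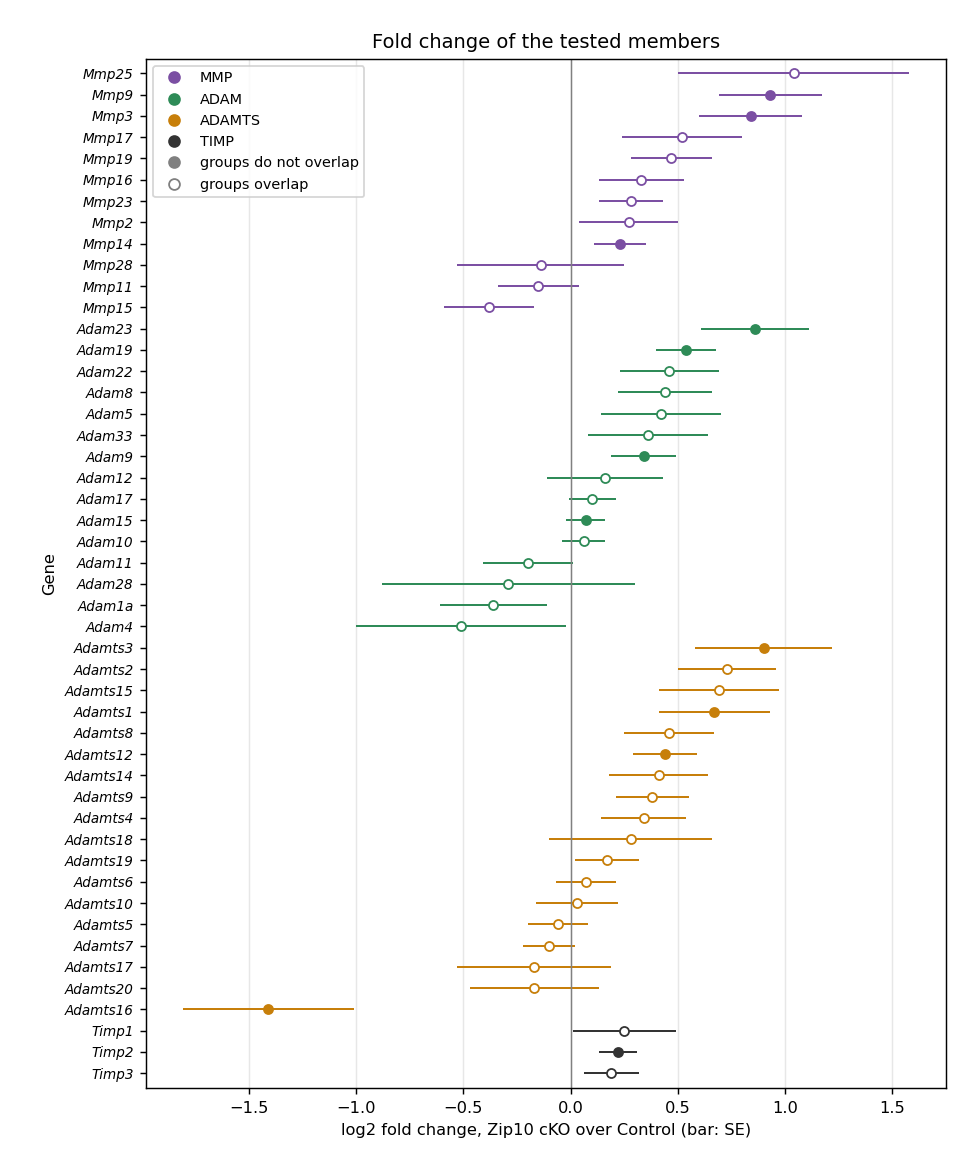
Log2 fold change of Zip10 cKO over Control with its SE for the 48 tested members, by family. Filled points mark the 12 members whose groups do not overlap in CPM, 11 to the right of 0 and Adamts16 to the left. No member passed an adjusted p of 0.05.

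**Figure D3:**
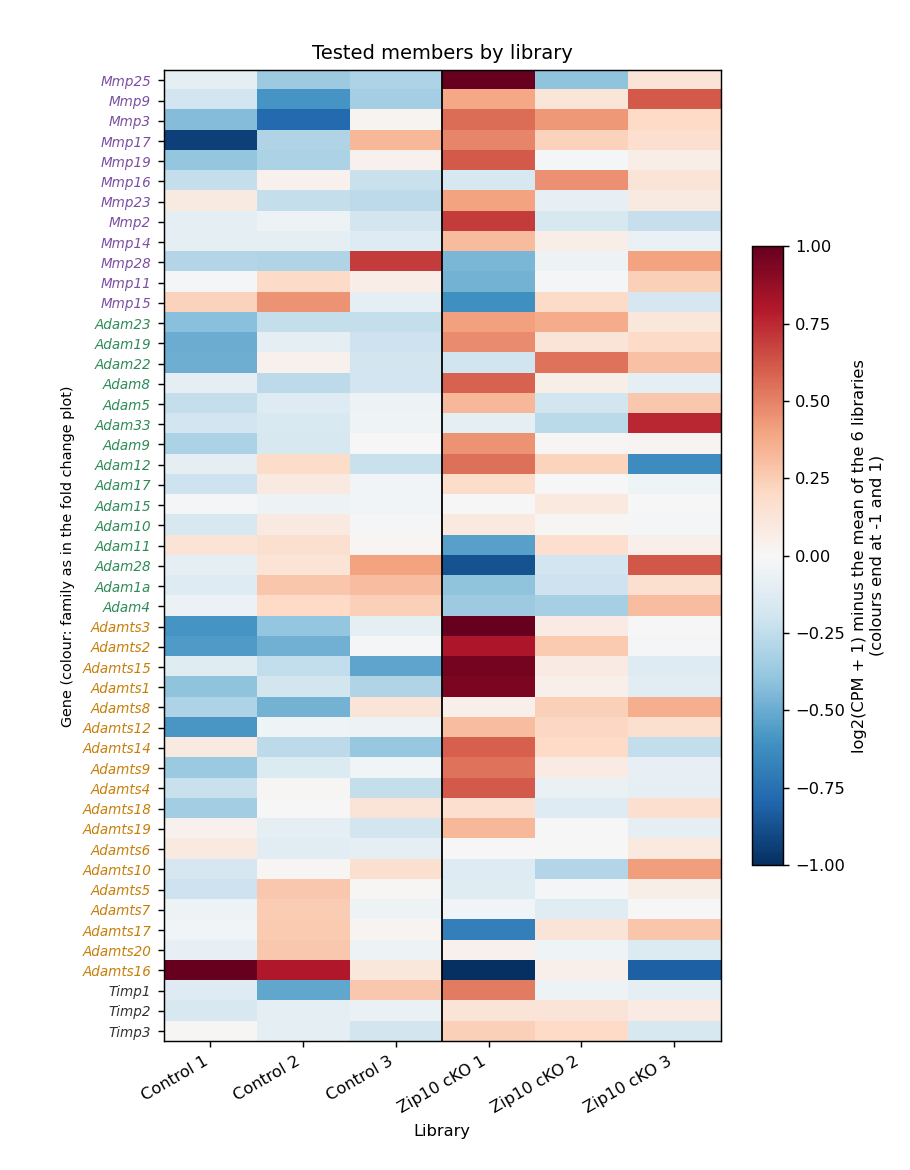
Log2(CPM + 1) of each tested member in each library, relative to the mean of the 6 libraries (red higher, blue lower, colours ending at -1 and 1). In the column of cKO library 1, Mmp25, Adamts3, Adamts15, Adamts1 and Adamts2 stand highest, from 1.03 down to 0.81, and Adamts16 runs the other way.

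The inhibitors are taken first. Timp2 was at 429, 445 and 456 CPM in controls 1 to 3 and at 521, 521 and 504 CPM in cKO libraries 1 to 3. All 3 cKO libraries lay above all 3 controls, and the means were 443 ± 13.8 and 515 ± 10.1 CPM (SD, n = 3 each). Its log2 fold change was 0.22 ± 0.09 (SE), at an unadjusted p of 0.0478 by edgeR's quasi-likelihood test, and was 0.21 without cKO library 1. Timp3 gave 0.19 ± 0.13 and Timp1 0.25 ± 0.24 as log2 fold change, with groups that overlapped. For Timp1 the value was 0.02 without cKO library 1. Timp3 shares exon sequence with Syn3 on the other strand, and since the strand setting of the counts is not given, reads of such pairs cannot be told apart. The same holds for 13 of the 48 tested members with an exon that overlaps another gene, among them Adam15, Adam17, Adam19, Adamts4, Adamts7, Adamts8, Adamts9, Mmp11 and Mmp19.

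Among the gelatinases, Mmp9, an enzyme of neutrophils and macrophages as well as of trophoblast, was at 3.56, 2.47 and 3.12 CPM in controls and 5.85, 4.65 and 6.95 CPM in cKO libraries. Each cKO library was above each control, on 50 to 140 counts per library. The fold of cKO over control was 1.90, a log2 fold change of 0.93 ± 0.24 (SE; unadjusted p = 0.00458 in edgeR's quasi-likelihood test), and was 0.92 without cKO library 1. Beside it, neutrophil markers summed to 17.5 to 28.3 TPM in controls and 15.9 to 104 TPM in cKO libraries, with Elane at 0, and 2 of 8 had enough counts to be tested. Most of this sum was Retnlg alone, at 21.96, 13.07 and 25.23 TPM in controls and 94.93, 13.28 and 55.81 TPM in cKO libraries. No other marker of that list was above 4.94 TPM in any library. Macrophage markers summed to 282 to 369 and 321 to 771 TPM. Their part in the Mmp9 difference was not tested. In bulk tissue, more cells of a type and more RNA per cell cannot be told apart.

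Mmp2 was at 459, 473 and 433 CPM in controls and 794, 437 and 418 CPM in cKO libraries. The high value was that of cKO library 1 alone, and the other 2 cKO libraries were within or below the control range. Its log2 fold change was 0.27 ± 0.23 and turned to -0.09 without that library. Mmp14 was at 271, 273 and 265 CPM in controls and 363, 307 and 277 CPM in cKO libraries. Here all 3 cKO libraries were above the controls, with a log2 fold change of 0.23 ± 0.12, and 0.11 without cKO library 1. Of the other membrane-type enzymes, Mmp15 gave -0.38 ± 0.21 and Mmp17 gave 0.52 ± 0.28, both with groups that overlapped.

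The stromelysin Mmp3, which cuts proteoglycans and activates other MMP precursors, was at 6.94, 5.24 and 9.92 CPM in controls. It was at 14.8, 13.4 and 11.3 CPM in cKO libraries, so that the groups did not overlap. Means were 7.37 ± 2.37 and 13.2 ± 1.77 CPM (SD, n = 3 each), a 1.79-fold difference. Its log2 fold change was 0.84 ± 0.24 (SE; unadjusted p = 0.00743 in edgeR's quasi-likelihood test) and 0.74 without cKO library 1. Mmp19, a secreted MMP of vessels and leukocytes, was at 77.3, 81.3 and 105 CPM in controls. Its cKO libraries, at 156, 101 and 107 CPM, overlapped them, and the log2 fold change was 0.47 ± 0.19, or 0.24 without cKO library 1. Mmp11, also called stromelysin-3, gave -0.15 ± 0.19 and Mmp23 gave 0.28 ± 0.15.

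Of 9 ADAM genes grouped as sheddases, 8 had a log2 fold change above 0. Adam19, a membrane protease that can release neuregulin, was at 59.7, 79.5 and 73.1 CPM in controls and 118, 93.0 and 97.1 CPM in cKO libraries. The lowest cKO library was thus above the highest control, and the fold was 1.45. Its log2 fold change of 0.54 ± 0.14 (SE) had the smallest p of any member (unadjusted p = 0.00398 in edgeR's quasi-likelihood test) and was 0.42 without cKO library 1. Adam9 was at 79.7, 89.5 and 99.6 CPM in controls and 137, 100 and 102 CPM in cKO libraries. The groups were apart by under 1 CPM between control 3 and cKO library 2, and its log2 fold change of 0.34 ± 0.15 was 0.17 without cKO library 1. The main sheddases differed little: Adam10 gave 0.06 ± 0.10 and Adam17 0.10 ± 0.11. Adam15 gave 0.07 ± 0.09, with groups that did not overlap in CPM (125 to 127 CPM in controls, 129 to 138 CPM in cKO libraries). In TPM its groups did overlap, at 114.41, 133.50 and 120.43 TPM in controls and 106.28, 152.91 and 121.97 TPM in cKO libraries. Adam12 gave 0.16 ± 0.27, spanning 89.7 to 205 CPM in the cKO libraries.

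Adam23 lacks the zinc site and binds LGI proteins and integrins. It was at 1.54, 1.88 and 1.89 CPM in controls and 3.52, 3.40 and 2.68 CPM in cKO libraries. No cKO library reached down to the controls, on 35 to 74 counts per library, and the log2 fold change was 0.86 ± 0.25 (SE; unadjusted p = 0.00822 in edgeR's quasi-likelihood test). Its relatives without the site, Adam22 and Adam11, gave 0.46 ± 0.23 and -0.20 ± 0.21, values given here although they lie outside the naming rule.

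Of the 7 proteoglycanase ADAMTS genes, 5 had a log2 fold change above 0, with a median of 0.38. Adamts1, a progesterone-regulated enzyme of the ovary that cuts versican, was at 122, 142 and 130 CPM in controls and 310, 166 and 149 CPM in cKO libraries. All cKO libraries were above the controls, and cKO library 1 was far above the other 2. The log2 fold change was 0.67 ± 0.26 (SE; unadjusted p = 0.0351 in edgeR's quasi-likelihood test) and 0.26 without that library. Adamts15 followed the same order of libraries in the cKO group, at 143, 77.1 and 66.6 CPM against 67.0, 61.1 and 50.1 CPM in controls. Its groups overlapped by under 1 CPM, and its log2 fold change of 0.69 ± 0.28 was 0.27 without cKO library 1. Adamts4 gave 0.34 ± 0.20 and 0.06 without that library, Adamts9 gave 0.38 ± 0.17 and 0.18, and Adamts8 gave 0.46 ± 0.21 and 0.54.

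The 6 ADAMTS genes without the glycine codon summed to 74.1, 90.6 and 83.8 TPM in controls and 184, 103 and 97.2 TPM in cKO libraries. The 13 with it summed to 87.0, 104 and 107 TPM and to 135, 106 and 119 TPM. The first sum was apart between the groups. The second overlapped, with cKO library 2 at 106 TPM and control 3 at 107 TPM. The cKO means were 1.54 and 1.21 times those of controls, and 1.21 and 1.13 times without cKO library 1. The difference between the 2 sums was not tested.

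All 3 procollagen N-proteinases, which remove the amino propeptide of fibrillar procollagens, had a log2 fold change above 0. Adamts2 was at 97.8, 104 and 145 CPM in controls and 255, 174 and 144 CPM in cKO libraries. Control 3 and cKO library 3 were nearly equal, and the log2 fold change was 0.73 ± 0.23 (SE; unadjusted p = 0.0134 in edgeR's quasi-likelihood test), 0.46 without cKO library 1. Adamts3 was at 4.53, 5.34 and 6.75 CPM in controls and 15.8, 7.78 and 7.35 CPM in cKO libraries. The groups did not overlap, and the log2 fold change of 0.90 ± 0.32 was 0.45 without cKO library 1. Adamts14, the member of this group outside the naming rule, gave 0.41 ± 0.23.

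Adamts12, which cuts the cartilage matrix protein COMP, was at 30.9, 45.1 and 44.8 CPM in controls and 57.9, 54.2 and 52.0 CPM in cKO libraries. The 3 cKO libraries were close together and above all controls, with a log2 fold change of 0.44 ± 0.15 (SE; unadjusted p = 0.0179 in edgeR's quasi-likelihood test), 0.40 without cKO library 1. Adamts7, its nearest relative, gave -0.10 ± 0.12, and Adamts10 gave 0.03 ± 0.19.

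Adamts16, a secreted member of the family that can cut fibronectin, was the member with the lowest log2 fold change. It was at 25.2, 20.3 and 12.2 CPM in controls and 4.14, 11.6 and 5.91 CPM in cKO libraries. The groups did not overlap, but control 3 and cKO library 2 were less than 1 CPM apart. Counts per library ran from 87 to 573. The fold of cKO over control was 0.377, a log2 fold change of -1.41 ± 0.40 (SE; unadjusted p = 0.00866 and adjusted p = 0.747 in edgeR's quasi-likelihood test). DESeq2 called it as lower, at a log2 fold change of -1.42 ± 0.36 (SE) with an adjusted p of 0.0491. It was the only member that DESeq2 called, and without cKO library 1 edgeR's log2 fold change was -1.13. Epithelial markers, 10 in all with 8 below 0, had a median of -0.25 on the log2 fold scale and summed to 769 to 1142 TPM in controls and 680 to 972 TPM in cKO libraries. Their part in the Adamts16 difference was not tested.

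Summed over each family, the MMP genes were at 599, 647 and 625 TPM in controls and 943, 632 and 643 TPM in cKO libraries. That sum was high in cKO library 1 alone, and the other 2 lay within the control range. The ADAMTS genes summed to 161, 194 and 190 TPM in controls and 319, 208 and 216 TPM in cKO libraries. The TIMP genes summed to 289, 305 and 326 TPM in controls and 435, 372 and 352 TPM in cKO libraries. For ADAMTS and TIMP the groups were apart, with cKO means 1.36 and 1.26 times those of controls, and 1.17 and 1.18 times without cKO library 1. The ADAM sum overlapped, at 292 ± 32.3 and 328 ± 17.3 TPM (SD, n = 3 each). The ratio of summed MMP to summed TIMP was 2.07, 2.12 and 1.92 in controls and 2.17, 1.70 and 1.83 in cKO libraries, so the groups overlapped. No test was made on these sums.

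**Figure D4:**
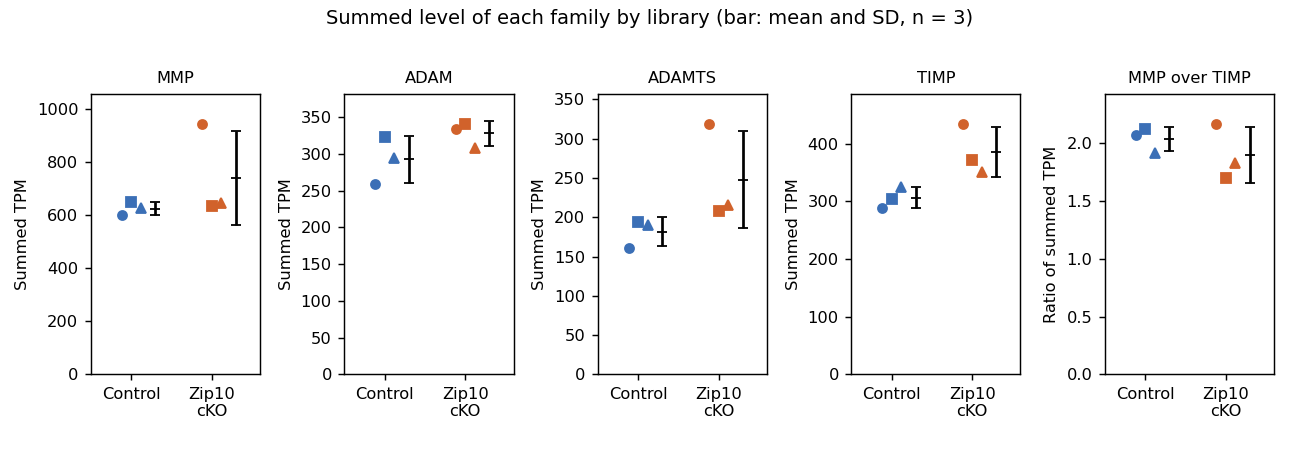
Summed TPM of each family and the ratio of summed MMP to summed TIMP, 1 point per library, with the mean and SD of each group (n = 3). The ADAMTS and TIMP sums of the groups do not overlap, and cKO library 1 is the highest point for MMP, ADAMTS and TIMP.

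Partners of these enzymes were read from lists set by their known roles, but chosen with earlier results of these data known. Matrix substrates of ADAMTS and MMP enzymes included 21 tested genes of 25, and all 21 had a log2 fold change above 0. Their median was 0.34, 7 (all higher) were at an unadjusted p under 0.05 in edgeR's quasi-likelihood test, and none passed the adjusted test. Over all genes tested, 6.46% were at that p (4.48% higher), and 49.4% had a log2 fold change above 0. As log2(CPM + 1) relative to the 6 libraries, the mean of these matrix substrates was -0.34, -0.10 and -0.03 in controls 1 to 3. In cKO libraries 1 to 3 it was 0.34, 0.19 and -0.06, so cKO library 3 was below control 3 and the groups overlapped. Lum, a collagen-binding proteoglycan, gave 0.49 ± 0.13, the collagen Col3a1 0.49 ± 0.14 and the thrombospondin Thbs2 0.51 ± 0.14. Of this list 5 genes are also in the stromal marker list. Among the 7 ADAMTS-like proteins, which share the ADAMTS tail but have no protease part, 6 were higher, 4 of them at an unadjusted p under 0.05, and none passed edgeR's adjusted quasi-likelihood test. Control libraries held Adamtsl1 at 20.4 ± 3.56 CPM (SD, n = 3), while the mean of the knockout group was 38.6 ± 9.22 CPM (SD, n = 3). Its log2 fold change was 0.92 ± 0.20. DESeq2 called it at an adjusted p of 0.0152, and edgeR's likelihood ratio test at an adjusted p of 0.0201. Adamtsl3 gave 1.19 ± 0.33 and Papln, papilin, 0.81 ± 0.28. In these 3 genes the groups did not overlap, which held for 4 of the 7 in all and for 12.7% of all genes tested.

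The activating side showed no common direction. Of 10 tested proprotein convertases and plasminogen activation genes, 5 were higher and 5 lower, and the median was 0.01 on the log2 fold scale. Plau, the urokinase-type plasminogen activator, gave 0.62 ± 0.25, the membrane serine protease gene St14 gave -0.36 ± 0.16, and Plg was listed at 0 in all libraries. ADAM partners, a list of iRhoms, the iRhom-binding Frmd8, tetraspanins and Bsg, had 4 of 11 higher and a median of -0.02, with Rhbdf2 at -0.29 ± 0.13. Substrates of ADAM10 and ADAM17 had 12 of 20 higher and a median of 0.02, with Notch2 at 0.32 ± 0.10 and Il6ra at 0.45 ± 0.14. Other protease inhibitors had 9 of 11 higher and a median of 0.14, with A2m, alpha-2-macroglobulin, at a fold of 2.47 of cKO over control and groups that overlapped. The astacins, a sister family of zinc proteases, had 2 tested genes, with Bmp1 at 0.11 ± 0.13 and Tll1 at 0.42 ± 0.55 (-0.52 without cKO library 3). No gene of these 5 lists passed the adjusted test in edgeR's quasi-likelihood fit, in its likelihood ratio test or in DESeq2.

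Markers of cell types also differed between the libraries. Stromal markers were higher in 7 of 10 cases (49.4% of all genes tested), with a median log2 fold of 0.35. They summed to 4306 to 5928 TPM in controls and 6559 to 7601 TPM in cKO libraries. The matrix genes of that list (Col1a1, Col1a2, Col3a1, Dcn, Lum and Postn) gave log2 fold changes of 0.27 to 0.88. Its other markers, Pdgfra, Vim, Hoxa10 and Hoxa11, gave 0.11, -0.02, -0.16 and -0.26. Smooth muscle markers were higher in 10 of 10, with a median of 0.55 and sums of 4189 to 8068 and 7079 to 11107 TPM. Macrophage markers were higher in 10 of 10, with a median of 0.60, and endothelial markers lower in 8 of 9, with a median of -0.20. Lymphocyte and NK cell markers were higher in 8 of 9, with a median of 0.71, and mast cell markers in 5 of 5, with a median of 0.66. As log2(CPM + 1) relative to the 6 libraries, the lymphocyte and NK cell mean was 0.00, -0.47 and -0.16 in controls 1 to 3. In cKO libraries 1 to 3 it was 0.55, 0.04 and 0.03. The mast cell mean was -0.27, -0.26 and -0.06 in controls and 0.32, -0.36 and 0.62 in cKO libraries. Here cKO library 2 lay below all controls. None of these markers passed edgeR's adjusted quasi-likelihood test, and DESeq2 called the smooth muscle genes Myh11 and Synm, both higher. The mean of the 48 tested members, as log2(CPM + 1) relative to the 6 libraries, was -0.17, -0.07 and -0.04 for the control group and 0.18, 0.05 and 0.07 for the knockout group. The stromal mean was -0.29, -0.14 and 0.02 for the control group, and 0.18, 0.13 and 0.10 for the knockout group. Both were lowest in control 1 and highest in cKO library 1. The same order held for the smooth muscle markers (-0.66 and 0.58 in these libraries), the matrix substrates (-0.34 and 0.34) and the ADAMTS-like proteins (-0.41 and 0.43). The epithelial mean was 0.43, 0.11 and -0.32 in controls 1 to 3 and -0.27, 0.16 and -0.11 in the other group. The part of these cell types in the members' differences was not tested.

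**Figure D5:**
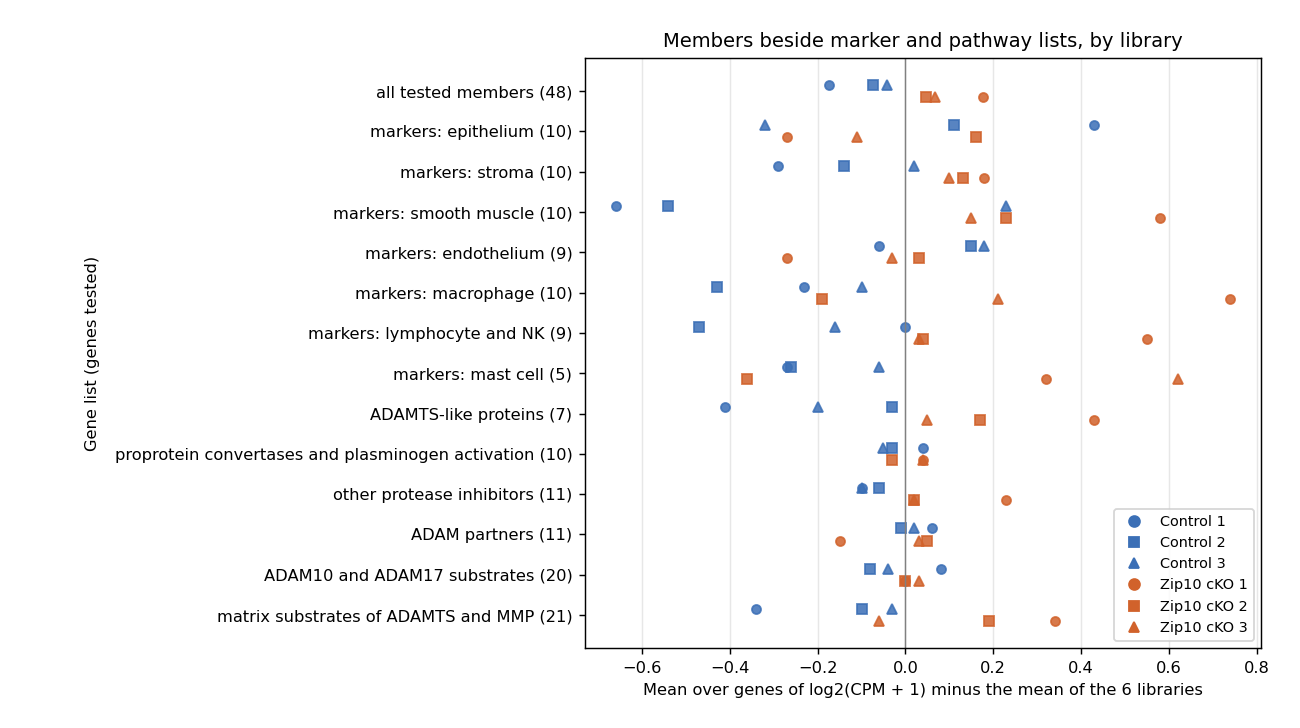
Mean of log2(CPM + 1) relative to the 6 libraries for the 48 tested members and for each marker or partner list with at least 5 tested genes, 1 point per library. The groups are apart for the members, the stromal and the lymphocyte and NK cell markers, the ADAMTS-like proteins and the other protease inhibitors, and overlap for the other lists.

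Gene length also moved with the groups. With all tested genes in 5 equal bins of length, the median log2 fold change ran from -0.11 in the shortest bin to 0.11 in the longest, and 23 of the 48 tested members fell in the longest. The members' median there was 0.34, and with each library's trend on length removed the median of all members was 0.25, with 11 at an unadjusted p under 0.05 in edgeR's quasi-likelihood test, beside 5.53% of all genes.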

How the data were processed

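RNA of 3 control and 3 Zip10 cKO uterus libraries was grouped by title. The submitters' processing notes name build GRCm39 (mm39), edgeR 3.38.4 in R 4.2.1, and, for the reads, RSEM 1.3.3, STAR 2.7.10a and fastp 0.23.2. Neither the annotation release nor the strand setting is stated in the labels. The authors deposited RSEM expected counts, with shared reads split between genes, and TPM, both per the file headers. TPM keeps no depth. Lengths in these tables are the authors' deposited values.

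Symbols came from GENCODE M21 names (52073 of 56748 IDs, 91.8%), which are of another build, so the tables were matched by ID. Coding sequences are GENCODE M21 transcripts, and promoters are RefSeq (GRCm38.p6). Expected counts were rounded, filtered by filterByExpr (minimum count 10, minimum total 15), scaled by TMM and tested by edgeR 4.0.16's quasi-likelihood test (robust, R 4.3.3), adjusted by Benjamini-Hochberg over 16737 genes, two-sided. SE comes from the F statistic. The rule for members used symbols alone, but this rule, the lists and the tests were set with earlier results of these data known. Genes named were Slc39a10, the TIMPs, members of at least 10 TPM, the 15 with the smallest p, those with non-overlapping groups, and up to 3 per partner list. Genes outside this rule were named after their values were seen. Alternatives used DESeq2 1.42.0 and limma 3.58.1. On simulated counts for the 16737 genes of this comparison the test recovered 32% of genes changed 1.5-fold and 78% of those changed 2-fold, with 12 false calls. The changed genes were drawn only from those above a floor of mean counts, and each gene was drawn independently. These rates therefore do not cover genes of low counts or a library that stands apart, such as cKO library 1. No 2 libraries were closer than a chi-square of 14.1 per degree of freedom. Figures used matplotlib 3.10.9.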

Additional observations from a re-analysis of the deposited data

How the results depend on the processing

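The count of members called was 0 in all alternatives except DESeq2, where it was 1. Over all genes, calls numbered 37 in DESeq2, 30 in edgeR's likelihood ratio test, 15 with no filter on low counts and 0 to 2 with each library left out in turn. With a library left out, the members at an unadjusted p under 0.05 ranged from 7 to 20 (3.96% to 8.97% of all genes), their median log2 fold change from 0.15 to 0.31 and the members with groups that do not overlap from 14 to 23 (19.7% to 26.9% of all genes). The replicate number as a block gave 16 members at an unadjusted p under 0.05 (8.09% of all genes), 0 called and a median of 0.27. Pairing was looked for in log2 CPM after each gene's group mean was subtracted. These deviations correlated at 0.09, 0.25 and 0.19 between same-numbered libraries. By them, 5 of 6 libraries correlated best with their own number, the exception being cKO library 1 (0.12 with control 3). This is at most a weak hint of a pairing that the labels do not state, since deviations from a group's mean depend on each other. With 1 pair at 0.09 the libraries were not treated as paired. The 30 named members tested had 540 values over 18 alternatives: 532 kept their direction and side of the threshold or were 0.00, 1 passed (Adamts16 in DESeq2) and 7 turned, none of them called. Adam10 was at -0.03 with the length trend removed, and with each library left out ranged from -0.02 to 0.12. Likewise Adam12 ranged from -0.11 to 0.43, Adamts10 from -0.22 to 0.17, Mmp11 from -0.33 to 0.03 and Mmp2 from -0.09 to 0.44. Slc39a10, at 0.00 with all libraries, took both signs (-0.19 to 0.26). For 18 other genes named, alternatives run after seeing the data gave 324 values, of which 321 kept direction and side, Adamtsl1 passed in 2 and Tll1 turned, ranging from -0.52 to 0.75 with a library left out. The causes were not tested. Class counts by median, control mean or lowest TPM stayed within 1.5 times those by the mean. Depth limits the low members: the lowest tested one had a mean of 0.235 TPM, and 30 fell outside the filter. With no filter 18 of these had a value, 0 were called and 1 was at an unadjusted p under 0.05.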
